A study of Danio rerio with 18 samples.

Results

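Zebrafish larvae exposed to 700 µM perfluorobutanesulfonic acid (PFBS) were compared with unexposed control larvae. Each group held 3 samples, so 6 of the 18 samples in the series entered the comparison. All larvae were of the AB wild type strain and carried no label of a mutation or transgene. Whole-body RNA was taken at 120 hours post fertilisation. The remaining samples were exposed to 7, 70, 3500 or 7000 µM, with 3 samples at each concentration. The title of the series sets PFBS beside perfluorooctanesulfonic acid and asks about the developing nervous system. Larvae per sample, exposure window and vehicle were not stated in the labels. The labels do not tell whether samples within a group are separate clutches or pools. Each p-value therefore reflects variation among the samples at hand, and this variation may be technical.

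PFBS is a short-chain perfluorinated sulfonic acid, used in place of its longer relative. Perfluorinated acids resemble fatty acids in shape and charge, and in rodents several of them activate the fatty acid receptor PPAR alpha. Cholesterol synthesis is governed by SREBP transcription factors, which raise the genes of the whole pathway when membrane sterol is low and which insig proteins hold back. A larva of this age has a working retina, a skin of few cell layers with ion-transporting cells, striated trunk muscle, a liver that secretes plasma proteins, and an innate immune system of macrophages and neutrophils. Its whole-body RNA mixes all of these.

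Total counts were 18720802, 14937147 and 17114017 in the controls and 15718868, 19146539 and 16970259 at 700 µM. The whole-body label was checked against tissue genes, and those of muscle, epidermis, lens and macrophages were detected in each of the 6 libraries. Of 32520 genes in the table, 5298 had no reads in any library. With transcript counts summed per gene, 20228 genes were abundant enough to test. The edgeR quasi-likelihood test with Benjamini-Hochberg adjustment called 1902 genes at an adjusted p below 0.05, of which 639 were higher and 1263 lower at 700 µM. That is 9.4% of the genes tested, with 3.16% called higher and 6.24% called lower. The larger changes lay mostly on the lower side: 50 called genes were at least 2-fold higher and 482 at least 2-fold lower. The median log2 difference over all tested genes was 0.00139. At an unadjusted p below 0.05 there were 5063 genes, beside 1011 expected if no gene differed. In 6024 genes (29.8%) the samples of the groups did not overlap, and 1866 of these were called. That was so for nearly all called genes, and it was part of the rule for naming the largest changes. Below, non-overlap therefore describes the named genes and adds no support. Levels are CPM values, counts relative to library size, scaled with trimmed mean of M values factors, and differences are log2 values of 700 µM minus control ± SE.

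**Figure D1:**
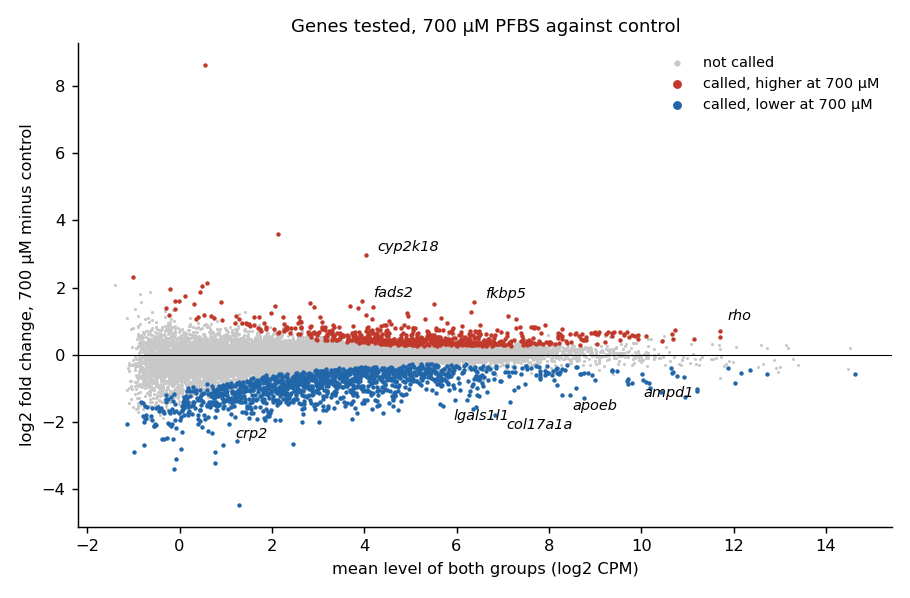
Log2 difference between 700 µM PFBS and control (vertical axis) against mean level in log2 CPM (horizontal axis) for the 20228 tested genes. Red points are the 639 genes called higher and blue points the 1263 called lower; labelled genes are described in the text.

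The number of called genes depended on single libraries. It was 674, 795 and 2611 without control sample 1, 2 or 3, and 1016, 749 and 2772 without 700 µM sample 1, 2 or 3. For that reason many counts of gene groups below are followed by their range over these 6 fits, each with 1 library left out. Counts given without a range should not be taken as steadier. The lower ends of the ranges came mostly from fits without sample 1 or 2 of a group. The upper ends came mostly from fits without sample 3 of either group. Of 151 named genes that were called, 111 were called in all 6 fits. A fit that took the spread from all 18 libraries called 674 genes. In it the called rises numbered 11 for cholesterol synthesis, 12 for rods, 5 for cones, 10 for lens, 7 for the clock, 2 for cortisol response, 4 for immediate early genes, 3 for synaptic genes and 1 for intestine. The called falls numbered 9 for epidermis, 0 for muscle, 7 for collagens, 10 for macrophages and 5 of 68 for hepatocyte genes.

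Synthesis of long polyunsaturated fatty acids stood among the largest rises. The desaturase gene fads2 (chromosome 25, 4133488 to 4148719) had 8.85, 5.89 and 7.84 CPM in the controls and 24.8, 19 and 26.5 CPM at 700 µM. It was 3.06-fold higher (log2 1.61 ± 0.16, adjusted p = 0.000672). The elongase gene elovl2 (chromosome 24, 8861272 to 8887825), which extends the chains that fads2 desaturates, had 3.43, 4.1 and 3.24 CPM in controls and 9.31, 10.31 and 12.3 CPM at 700 µM. Every exposed sample lay above every control for both genes, as the naming rule required, and elovl2 was 2.94-fold higher (log2 1.55 ± 0.16, adjusted p = 0.000672). Among 26 tested genes of fatty acid and triglyceride synthesis, 6 were higher (23.1%) and 1 lower (3.85%), beside 3.16% and 6.24% of all genes. With a library left out 3 to 8 were higher. The very-long-chain elongase elovl4b rose by a smaller step, from 69.1, 74.2 and 69.6 to 125, 113 and 92.9 CPM (log2 0.62 ± 0.10, adjusted p = 0.00367). The member that fell was acacb, an acetyl-CoA carboxylase (log2 -0.45 ± 0.08, adjusted p = 0.00729). Its call was lost without 700 µM sample 2.

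Genes along the cholesterol synthesis pathway were higher. All 24 listed genes were tested, 24 had a log2 difference above 0, and 11 were called higher (7 to 11 with a library left out), with none lower and a median of 0.57. Their share called was 45.8%, beside 3.16% of all genes called higher. At the head of the pathway hmgcs1, the HMG-CoA synthase, had 31.2, 30.4 and 30.6 CPM in controls and 53.6, 52.6 and 47.4 CPM at 700 µM. The SD was 0.431 CPM in controls and 3.32 CPM at 700 µM (n = 3), and the groups did not overlap (log2 0.72 ± 0.08, adjusted p = 0.000767). The rate-limiting reductase hmgcra went from 26.8, 23.9 and 25.7 to 41.9, 40.2 and 37.8 CPM (log2 0.63 ± 0.08, adjusted p = 0.00133).

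Sterol ring formation and demethylation follow later in the pathway. The lanosterol synthase lss had 2.2, 1.79 and 2.18 CPM in controls and 4.72, 4.48 and 4.37 CPM at 700 µM (log2 1.11 ± 0.18, adjusted p = 0.00421). The lanosterol demethylase cyp51 had 9.87, 9.20 and 10.4 CPM in controls and 21.4, 21.3 and 36.6 CPM at 700 µM (log2 1.41 ± 0.19, adjusted p = 0.00184). Sample 3 was the highest for cyp51, and the other 2 exposed samples still lay above the controls. The other called members were sqlea (log2 1.13), msmo1 (0.99), mvda (0.82), hsd17b7 (0.78), nsdhl (0.77), acat2 (0.51) and fdps (0.36), which span the pathway from acetoacetyl-CoA to late sterols.

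Among 16 tested genes of sterol sensing and uptake, 2 rose (12.5%) and 1 fell (6.25%), beside 3.16% and 6.24% of all genes. The sterol sensor insig1, itself an SREBP target, had 19.6, 19.9 and 21.0 CPM in controls and 34.2, 36.1 and 35.2 CPM at 700 µM (log2 0.79 ± 0.08, adjusted p = 0.000672). Its 2 groups stood well apart and each varied by under 1 CPM (SD 0.730 and 0.958, n = 3). The transcription factor gene srebf2 went from 52.0 ± 5.73 to 67.0 ± 3.40 CPM (SD, n = 3; log2 0.35 ± 0.09, adjusted p = 0.0321). That call was lost in 4 of the 6 fits, those without sample 1 or 2 of either group. The sterol exporter abca1a fell (log2 -0.38 ± 0.08, adjusted p = 0.00979), and its call was lost without control 2 or without 700 µM sample 2. The LDL receptor gene ldlra, the main uptake route, did not pass (log2 0.24 ± 0.15, adjusted p = 0.335).

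**Figure D2:**
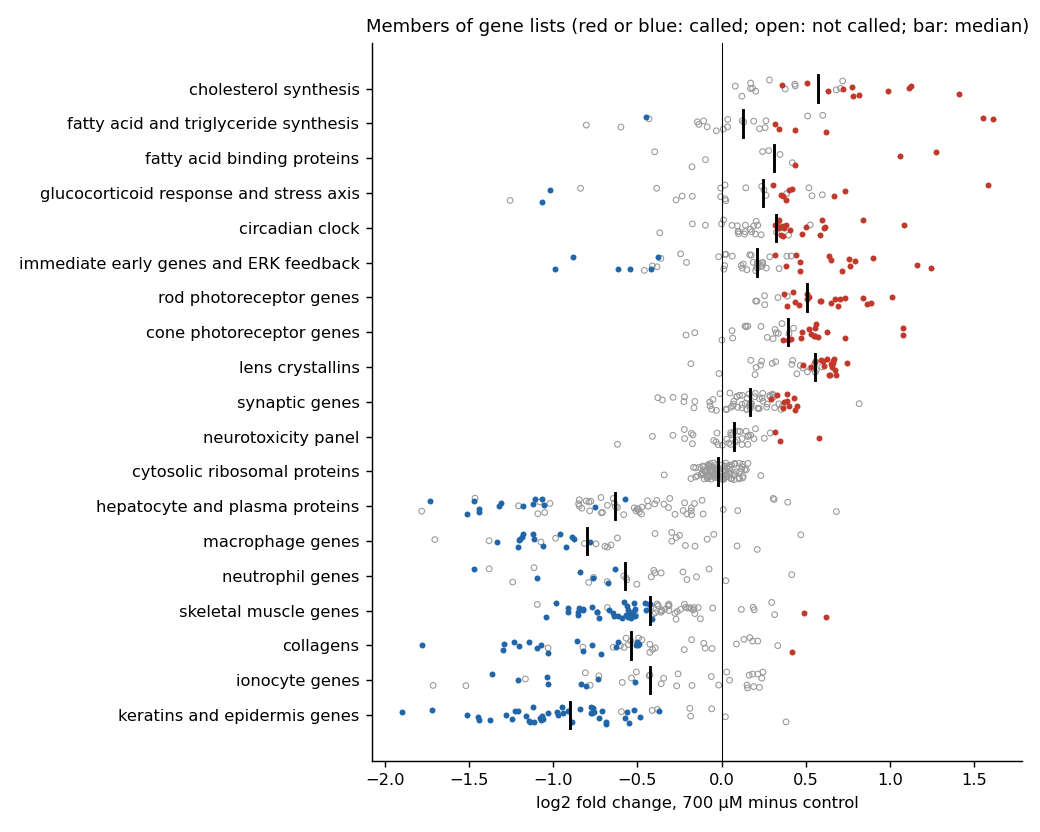
Log2 difference between 700 µM PFBS and control for each tested member of 19 gene groups. Each point is a gene, coloured where it was called, and the bar marks the median of the group; cholesterol synthesis (median 0.57) and lens (0.55) lie to the right and keratins and epidermis (-0.90) and macrophage genes (-0.80) to the left.

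Of 39 tested intestine genes, 9 were higher (23.1%), 4 lower (10.26%) and 26 not called, beside 3.16% and 6.24% of all genes. With a library left out 5 to 8 were higher and 2 to 5 lower. The intestinal fatty acid binding protein gene fabp2 had 112, 111 and 79.9 CPM in controls and 200, 176 and 261 CPM at 700 µM (log2 1.06 ± 0.15, adjusted p = 0.00223). Its relative fabp1b.1 had 59.7, 46.1 and 32.7 CPM in controls and 96.0, 93.3 and 150 CPM at 700 µM (log2 1.27 ± 0.21, adjusted p = 0.00393). Sample 3 was the highest exposed sample for both. Among 10 fatty acid binding protein genes 3 were higher (30%, beside 3.16% of all genes). The third was the brain form fabp7a (log2 0.44 ± 0.10, adjusted p = 0.0176), whose call was lost in 3 fits.

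The chitinases chia.1 (log2 1.41 ± 0.24, adjusted p = 0.00496) and chia.2 (log2 0.82 ± 0.10, adjusted p = 0.00108) rose as well. The neutral amino acid transporter gene slc6a19a.1 had 3.27, 1.98 and 1.41 CPM in controls and 4.47, 5.05 and 9.04 CPM at 700 µM (log2 1.44 ± 0.32, adjusted p = 0.0163). That call was lost without control 2. The fallers included cubn and dab2, a receptor and an adaptor of protein uptake in gut and kidney. The level of cubn went from 35.4, 32.5 and 29.9 to 16.8, 21.8 and 18.5 CPM (log2 -0.79 ± 0.11, adjusted p = 0.00184), and that of dab2 from 33.7 ± 1.11 to 23.4 ± 0.437 CPM (SD, n = 3; log2 -0.54 ± 0.08, adjusted p = 0.00224).

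Of 22 lipoprotein genes, 4 rose (18.2%) and 3 fell (13.6%), beside 3.16% and 6.24% of all genes. With a library left out 3 to 5 were higher and 1 to 8 lower. The 4 that rose were apoc2 (log2 0.56) and apolipoprotein A-IV genes of a chromosome 16 cluster. The name apoa4b.2 belongs to 2 gene identifiers, and reads could be divided between such near copies in ways not stated. One of them, at 23947196 to 23948538, had 29, 21.7 and 19.8 CPM in controls and 66.3, 55.3 and 81.5 CPM at 700 µM (log2 1.5 ± 0.15, adjusted p = 0.000672). The other, at 23921610 to 23922868, had 2.32 ± 0.180 and 5.56 ± 1.71 CPM (SD, n = 3; log2 1.23 ± 0.23, adjusted p = 0.00729). The neighbouring apoa4b.1 was also higher (log2 0.62 ± 0.12, adjusted p = 0.01).

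In the same cluster apoeb, the apolipoprotein E gene of macrophages, microglia and the yolk layer, moved the other way. It had 397, 442 and 460 CPM in controls and 181, 182 and 207 CPM at 700 µM. The groups stood far apart, with little spread among the exposed samples. The gene was 2.31-fold lower (log2 -1.21 ± 0.09, adjusted p = 0.000111), and its adjusted p was at most 0.00197 in the fits with a library left out.

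Of 34 genes of fatty acid oxidation and PPAR signalling 5 rose and 1 fell, with 3 to 6 higher when a library was left out. The shares called were 14.7% higher and 2.94% lower, beside 3.16% and 6.24% of all genes. Mitochondrial uncoupling genes were among the 5. The muscle-rich ucp3 had 17.9, 19.8 and 19.6 CPM in controls and 40.5, 38.8 and 48.7 CPM at 700 µM (log2 1.15 ± 0.10, adjusted p = 0.000286). The adjacent gene on chromosome 10, ucp2, had 76.8, 79.1 and 88.1 against 109, 106 and 120 CPM (log2 0.44 ± 0.08, adjusted p = 0.00729). Both groups were separated for both genes. The lipase inhibitor angptl4 rose by a log2 of 0.52 ± 0.11 (adjusted p = 0.0128), a call lost without control 2. The kinase gene pdk2b rose too (log2 0.47), and ucp1 fell (log2 -0.48).

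The largest rise among the named genes was in a cytochrome P450. The gene cyp2k18 (chromosome 3, 12710350 to 12715432), a member of the xenobiotic-metabolising family CYP2, had 3.81, 4.56 and 2.71 CPM in controls. At 700 µM it had 22.7, 24.3 and 40.9 CPM. Every exposed sample lay above the highest control, as the naming rule required, and the gene was 7.87-fold higher (log2 2.98 ± 0.25, adjusted p = 0.000146). Among 41 tested P450 genes of drug and steroid metabolism 5 rose (12.2%) and 2 fell (4.88%), beside 3.16% and 6.24% of all genes. With a library left out 4 to 6 were higher and 0 to 3 lower. The gut and liver gene cyp3a65 had 93.4, 85.7 and 78.6 CPM in controls and 186, 158 and 231 CPM at 700 µM (log2 1.14 ± 0.12, adjusted p = 0.000767).

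Smaller P450 rises were seen in cyp2n13 (log2 0.85 ± 0.17, adjusted p = 0.00849) and cyp2x9 (log2 0.95). One identifier of cyp2y3 rose from 0.542 ± 0.182 to 2.46 ± 0.312 CPM (SD, n = 3; log2 2.13 ± 0.30, adjusted p = 0.00219). A second identifier with the same name, which held more reads, did not pass (21.3 and 24.8 CPM, adjusted p = 0.491). The dioxin-responsive gene cyp1a also did not pass (6.34 and 4.74 CPM, log2 -0.43 ± 0.19, adjusted p = 0.186). The fallers were cyp2aa1 (log2 -0.83) and cyp2k16 (log2 -0.68).

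Conjugation and export genes split, with 5 of 51 higher (9.80%) and 6 lower (11.8%), beside 3.16% and 6.24% of all genes. With a library left out 2 to 4 were higher and 3 to 9 lower. The glucuronosyltransferase ugt1a1 rose from 18.8, 19.8 and 16.8 to 29.5, 29.1 and 38.2 CPM (log2 0.79 ± 0.12, adjusted p = 0.00286). The exporter abcb5 fell from 80.7, 80.4 and 57.7 to 19.9, 25.1 and 35.2 CPM (log2 -1.46 ± 0.18, adjusted p = 0.00117), and the exporter abcg2a by a log2 of -0.73 ± 0.12 (adjusted p = 0.00324). Genes of glutathione peroxidases rose, gpx1b by a log2 of 0.96 ± 0.17 (adjusted p = 0.00526) and gpx4a by 0.71 ± 0.12 (adjusted p = 0.00393). The NRF2 target nqo1, a quinone reductase, fell (log2 -0.61 ± 0.12, adjusted p = 0.00864; lost without control 1). In all, 3 of 29 NRF2 and glutathione genes rose (10.34%) and 3 fell (10.34%), beside 3.16% and 6.24% of all genes. With a library left out 2 to 3 were higher and 1 to 3 lower. The fit over all 18 libraries called 2 higher and 0 lower.

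Of 30 tested genes of the cortisol response and stress axis, 9 rose (30%), 2 fell (6.67%) and 19 were not called. Of all genes 3.16% were called higher and 6.24% lower. With a library left out 4 to 9 of the list were higher, and its median was 0.25. The co-chaperone gene fkbp5, a standard readout of the glucocorticoid receptor, had 37.6, 28.4 and 57.4 CPM in controls and 125, 120 and 130 CPM at 700 µM. The exposed samples agreed closely and lay far above controls that ranged widely (log2 1.58 ± 0.18, adjusted p = 0.00102). The gluconeogenic pck1 went from 91.2, 94.9 and 75 to 153, 129 and 157 CPM (log2 0.73 ± 0.11, adjusted p = 0.00223). The cortisol-inactivating enzyme gene hsd11b2 rose as well (11.3 ± 0.548 to 18.2 ± 1.93 CPM, SD, n = 3; log2 0.67 ± 0.11, adjusted p = 0.00456).

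The tyrosine aminotransferase gene tat, which glucocorticoids raise in mammalian liver, fell from 13.3, 13.8 and 10.02 to 5.15, 6.25 and 6.47 CPM (log2 -1.07 ± 0.15, adjusted p = 0.00223). The receptor gene nr3c1 itself did not pass (log2 0.03). None of 14 thyroid axis genes was called by edgeR. Among 27 hormone genes npy (log2 0.66 ± 0.16, adjusted p = 0.0244) and irs2b (log2 0.49 ± 0.08, adjusted p = 0.0032) rose and the leptin receptor gene lepr fell (log2 -0.66 ± 0.10, adjusted p = 0.00324). Of the 27 hormone genes 7.41% were thus called higher and 3.70% lower, beside 3.16% and 6.24% of all genes. The call of npy was lost in 3 fits.

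Circadian clock genes rose without a single called fall, 19 of 42 (8 to 18 with a library left out), with a median of 0.32. That is 45.2%, beside 3.16% of all genes called higher. Several of the called genes are also targets of cortisol or of light. The repressor gene nr1d2a had 134, 167 and 141 CPM in controls and 270, 258 and 272 CPM at 700 µM (log2 0.84 ± 0.09, adjusted p = 0.000767). The repressor gene nfil3-6 had 32.1, 39.6 and 25.7 CPM in controls and 69.2, 63.5 and 75.7 CPM at 700 µM (log2 1.08 ± 0.13, adjusted p = 0.00113). Exposed samples exceeded every control in both. The light-inducible cryptochrome cry1a (52.1 ± 2.88 to 79.8 ± 2.4 CPM, SD, n = 3; adjusted p = 0.00117) and bhlhe40 (331 ± 29 to 511 ± 31.3 CPM; adjusted p = 0.00278) rose by log2 values of 0.60 and 0.61. The time of day of sampling is not given in the sources used here.

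Immediate early genes and feedback genes of the ERK pathway rose more often than they fell, 14 against 6 of 53. The shares were 26.4% and 11.3%, beside 3.16% and 6.24% of all genes. With a library left out 8 to 18 were higher. The ERK phosphatase gene dusp5 had 16.9, 16.5 and 20.4 CPM in controls and 46.4, 41.8 and 41.2 CPM at 700 µM (log2 1.25 ± 0.10, adjusted p = 0.000128). The transcription factor gene egr1 had 235, 237 and 213 CPM in controls and 457, 381 and 338 CPM at 700 µM (log2 0.76 ± 0.11, adjusted p = 0.00202). Neither overlapped between groups. Rises of ier2b (log2 0.90 ± 0.11, adjusted p = 0.00117) and nr4a3 (log2 0.76 ± 0.10, adjusted p = 0.00184) were of like size, and fosb (1.16), fosaa (0.80) and fosab (0.72) were also called. The 6 that fell were klf2b (log2 -0.99), klf2a (-0.88), atf3 (-0.62), socs3a (-0.55), jun (-0.42) and socs3b (-0.38).

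**Figure D3:**
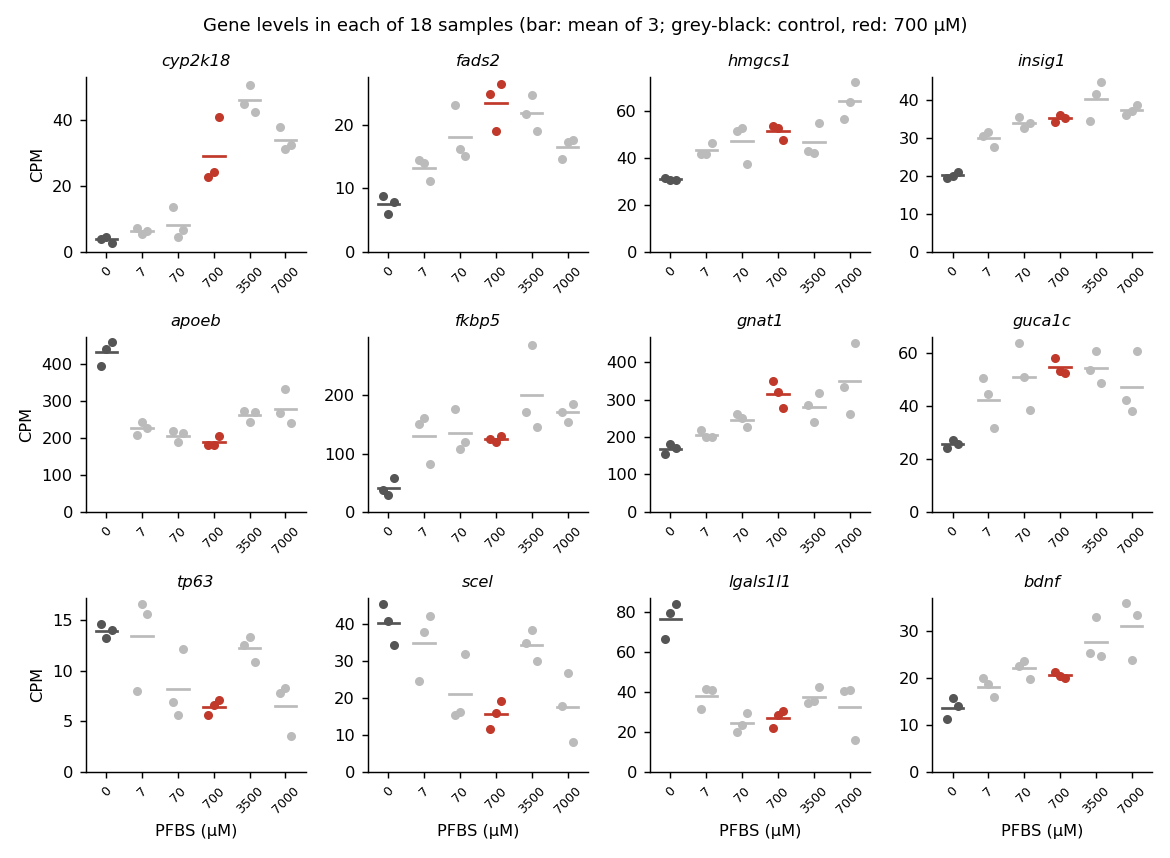
Levels of 12 genes in all 18 samples, in CPM on the vertical axis, by PFBS concentration on the horizontal axis. Each point is a sample; at 700 µM cyp2k18, fads2, hmgcs1, insig1, fkbp5, gnat1, guca1c and bdnf lie above the controls and apoeb, tp63, scel and lgals1l1 below them.

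Genes of the eye rose in number. Of 25 tested rod photoreceptor genes 19 were called higher and none lower (14 to 21 with a library left out), with a median of 0.51. That is 76%, beside 3.16% of all genes called higher. The rod transducin gene gnat1 had 155, 183 and 170 CPM in controls and 351, 321 and 278 CPM at 700 µM (log2 0.89 ± 0.10, adjusted p = 0.000767). Its partner subunit gngt1 had 110, 111 and 134 against 231, 228 and 183 CPM (log2 0.84 ± 0.11, adjusted p = 0.00132). No exposed sample reached down to the controls, and sample 3 was the lowest exposed sample of both genes. The rod phosphodiesterase pde6a (44.3 ± 1.19 to 74.4 ± 6.54 CPM, SD, n = 3) and the arrestin sagb (105 ± 6.70 to 167 ± 13.3 CPM) rose by log2 values of 0.73 ± 0.08 and 0.65 ± 0.08 (adjusted p = 0.000767 and 0.00133). The visual pigment gene rho rose by a log2 of 0.71.

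Of 33 cone genes 16 were higher and none lower (7 to 21 with a library left out), with a median of 0.39. That is 48.5%, beside 3.16% of all genes called higher. The guanylate cyclase activator guca1c, which restores cGMP after a flash, had 24.1, 27.0 and 25.5 CPM in controls and 57.8, 53.2 and 52.5 CPM at 700 µM. It was 2.11-fold higher with narrow spread in both groups (log2 1.08 ± 0.08, adjusted p = 0.000111). The red opsin gene opn1lw2 went from 1296, 1211 and 1294 to 2300, 2218 and 1867 CPM (log2 0.73 ± 0.11, adjusted p = 0.00223). Red, green, blue and ultraviolet opsins each had a called member, with opn1mw1 at a log2 of 0.63, opn1sw2 at 0.57 and opn1sw1 at 0.53.

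Of 45 visual cycle and retinoid genes 12 rose (26.7%) and 1 fell (2.22%), beside 3.16% and 6.24% of all genes. With a library left out 4 to 13 were higher. The retinoid carrier of the photoreceptor matrix rbp3 had 165, 182 and 127 CPM in controls and 311, 282 and 242 CPM at 700 µM (log2 0.80 ± 0.13, adjusted p = 0.00356). The retinoic acid hydroxylase cyp26a1, a retinoic acid target outside the eye as well, went from 6.07 ± 0.516 to 10.8 ± 0.538 CPM (SD, n = 3; log2 0.82 ± 0.13, adjusted p = 0.00303). The member that fell was rbp4, the plasma retinol carrier made in liver (log2 -0.58).

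Lens crystallin genes rose too, 18 of 38 (47.4%, beside 3.16% of all genes) with none lower. With a library left out 10 to 19 were higher. Of the 18, 14 were gamma crystallins named crygm2d. The gene crygm2d7 had 549, 562 and 445 CPM in controls and 918, 816 and 762 CPM at 700 µM (log2 0.66 ± 0.11, adjusted p = 0.00421). These genes lie in a cluster of near copies on chromosome 9 and their single values are uncertain. The share of all counts taken by the lens list was 1.22 to 1.88% in controls and 2.28 to 2.62% at 700 µM. Over the same libraries the share taken by skeletal muscle genes was 16.4 to 17.3% in controls and 11.3 to 14.0% at 700 µM. The part of that shift in the values of the eye was not tested. In whole-body RNA a changed number of cells of a type and a changed amount of RNA per cell cannot be told apart.

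The nervous system panel changed in few members. Of 38 tested genes 3 were higher and none lower, 7.89% beside 3.16% of all genes called higher, and 0 to 4 were higher with a library left out. The neurotrophin gene bdnf had 11.2, 15.7 and 14.0 CPM in controls and 21.2, 20.4 and 20.001 CPM at 700 µM (log2 0.58 ± 0.12, adjusted p = 0.0127). The groups did not overlap, but the call was lost without control 1 or without 700 µM sample 2. The GABA-synthesising enzyme gene gad1b had 245, 248 and 283 against 351, 336 and 311 CPM (log2 0.35 ± 0.09, adjusted p = 0.0276). The acetylcholine-synthesising gene chata had 48.2, 49.7 and 46.6 against 56.8, 66.0 and 58.9 CPM (log2 0.32 ± 0.08, adjusted p = 0.0292). Both calls were lost in 4 of the 6 fits.

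Classical markers of the developing nervous system did not pass. The glial gene gfap had 197, 176 and 139 CPM in controls and 148, 211 and 199 CPM at 700 µM, with overlapping groups (log2 0.11 ± 0.14, adjusted p = 0.681). The early neuronal gene elavl3 had 321, 333 and 325 against 338, 322 and 317 CPM (log2 -0.02 ± 0.08, adjusted p = 0.893). The acetylcholinesterase gene ache had 220, 231 and 202 against 211, 236 and 234 CPM (log2 0.04 ± 0.08, adjusted p = 0.79). Samples of the 2 groups were interleaved in each of these genes. The log2 differences were 0.15 ± 0.13 for the growth cone gene gap43, 0.09 ± 0.11 for myelin basic protein mbpa and 0.17 ± 0.09 for the synapsin syn2a (adjusted p = 0.529, 0.653 and 0.261). They were 0.08 ± 0.13 for shha, -0.03 ± 0.18 for neurog1 and 0.08 ± 0.13 for the neurotrophic factor manf (adjusted p = 0.74, 0.931 and 0.76).

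Among 68 synaptic genes 10 were called higher (14.7%, beside 3.16% of all genes) and none lower, with a median of 0.17. That count, however, ran from 0 to 19 with a library left out. The acetylcholine vesicle transporter slc18a3a, which lies beside chata on chromosome 13, went from 39.5, 36.2 and 35.0 to 51.5, 55.4 and 45.9 CPM (log2 0.45 ± 0.09, adjusted p = 0.00871; lost without 700 µM sample 2). The NMDA receptor gene grin1a went from 334, 353 and 391 to 554, 493 and 430 CPM (log2 0.44 ± 0.10, adjusted p = 0.0218; lost in 4 fits). Each separated the groups by a modest step. Of 19 myelin genes 1 was called lower (5.26%, beside 6.24% of all genes). It was the neuregulin receptor gene erbb3b, which fell from 7.40, 9.73 and 6.19 to 3.60, 4.43 and 3.79 CPM (log2 -0.99 ± 0.19, adjusted p = 0.0076).

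Epidermal genes had the largest share of called falls among the 45 gene lists. Of 50 tested keratin and epidermis genes 42 were called lower and none higher, with a median of -0.90. This is 84% of the list beside 6.24% of all genes called lower. The count was 20 to 44 with a library left out. The transcription factor gene tp63, the master regulator of basal epidermis, had 14.6, 13.2 and 14.0 CPM in controls and 5.59, 6.56 and 7.06 CPM at 700 µM. The groups lay far apart for so low a level (log2 -1.14 ± 0.12, adjusted p = 0.000767). The cornified envelope gene scel went from 45.2, 40.8 and 34.3 to 11.6, 15.9 and 19.2 CPM (log2 -1.38 ± 0.16, adjusted p = 0.000876).

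The plakin ppl (105 ± 14.4 to 55.5 ± 9.55 CPM, SD, n = 3; log2 -0.94 ± 0.13, adjusted p = 0.00175) and the aerolysin-like gene aep1 (21.8 ± 4.83 to 6.66 ± 2.32 CPM; log2 -1.72 ± 0.22, adjusted p = 0.00133) fell alongside. Called keratin genes ranged from krt99 (log2 -1.90) to krt18a.1 (-0.37), and the epithelial adhesion genes epcam (-1.21), cldne (-1.23), cdh1 (-0.78) and dspb (-1.06) were also lower. Among the largest falls outside the list was grhl1, a grainyhead factor of epidermal barrier genes, with 7.56, 4.1 and 3.36 CPM in controls and 1.12, 1.51 and 1.46 CPM at 700 µM (log2 -1.89 ± 0.31, adjusted p = 0.00421). The epithelial membrane gene prom2 went from 5.90, 5.76 and 5.95 to 1.61, 1.2 and 2.22 CPM (log2 -1.83 ± 0.22, adjusted p = 0.00111).

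Collagens and other matrix genes fell with the skin. Of 45 collagen genes 19 were lower and 1 higher (7 to 31 lower with a library left out), with a median of -0.54. The shares were 42.2% lower and 2.22% higher, beside 6.24% and 3.16% of all genes. The hemidesmosome collagen col17a1a, which anchors basal keratinocytes, had 207, 178 and 145 CPM in controls and 35.0, 47.8 and 73.1 CPM at 700 µM. It was 3.43-fold lower (log2 -1.78 ± 0.21, adjusted p = 0.00113), with sample 3 nearest to the controls. The anchoring fibril collagen col7a1 fell by a log2 of -1.15 ± 0.15 (adjusted p = 0.00133). The fibrillar collagen col5a3b fell by -1.24 ± 0.15 and the fibril-associated col14a1b by -1.03 ± 0.13 (adjusted p = 0.00113 and 0.00131). The actinodin gene and3, which builds the fibres of the fin fold, went from 52.2, 37.6 and 30.5 to 7.02, 20.6 and 10.9 CPM (log2 -1.65 ± 0.29, adjusted p = 0.00572).

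Of 37 tested ionocyte genes, those of the ion-transporting skin cells, 8 were lower (21.6%, beside 6.24% of all genes) and none higher. With a library left out 3 to 10 were lower and 0 to 2 higher. The median was -0.43, with 11 genes above 0. The share of all counts taken by the list was not lower: it was 0.114 to 0.134% in controls and 0.127 to 0.138% at 700 µM, with overlapping groups. The sodium pump subunit atp1a1a.2 had 35.3, 39.2 and 26.6 CPM in controls and 11.1, 15.3 and 17.6 CPM at 700 µM (log2 -1.21 ± 0.17, adjusted p = 0.00195). The pump genes atp1a1a.2, atp1a1a.3 and atp1a1a.5 are neighbouring copies, so the division of reads among them is uncertain. The ionocyte transcription factor foxi3b fell from 4.56, 6.88 and 5.30 to 2.24, 2.81 and 3.15 CPM (log2 -1.03 ± 0.21, adjusted p = 0.00999; lost without control 2). Of 35 cartilage and bone genes 5 were lower (1 to 12 with a library left out), among them the tendon matrix gene thbs4b (84.3 ± 11 to 47.8 ± 11.4 CPM, SD, n = 3; log2 -0.83 ± 0.15, adjusted p = 0.00595). The share of cartilage and bone genes called lower was 14.3%, beside 6.24% of all genes. Of 17 notochord genes only cav1 was called lower (5.88%, beside 6.24% of all genes), and its call was lost in 4 fits.

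Skeletal muscle genes fell by smaller steps. Of 75 tested 35 were lower (46.7%) and 2 higher (2.67%), beside 6.24% and 3.16% of all genes. The median was -0.43. The count is fragile: 5 to 48 were lower with a library left out. The AMP deaminase ampd1 had 1204, 1072 and 1149 CPM in controls and 578, 662 and 716 CPM at 700 µM (log2 -0.82 ± 0.10, adjusted p = 0.00117). The calcium channel gene cacna1sb, the voltage sensor of contraction, had 71.9, 70.7 and 54.8 against 28.1, 34.9 and 43.0 CPM (log2 -0.91 ± 0.14, adjusted p = 0.00324). The groups stayed apart for both, and more narrowly for cacna1sb.

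The junctophilin jph2, which holds the calcium release membranes together, fell by a log2 of -0.85 ± 0.15 (adjusted p = 0.00524), and slow and fast myosin heavy chains such as smyhc1 (-0.99) and myhz2 (-0.84) were called lower. The 2 risers were the mitochondrial creatine kinase ckmt2a, from 226, 230 and 249 to 393, 358 and 345 CPM (log2 0.62 ± 0.08, adjusted p = 0.00172), and myoglobin mb (log2 0.49). Of 16 heart genes 1 was called lower (6.25%, beside 6.24% of all genes), mybpc3 (log2 -0.68 ± 0.17, adjusted p = 0.0269), lost in 4 fits. Beside the lower share of muscle genes, keratin and epidermis genes took 1.54 to 1.90% of counts in controls and 0.608 to 1.21% at 700 µM.

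**Figure D4:**
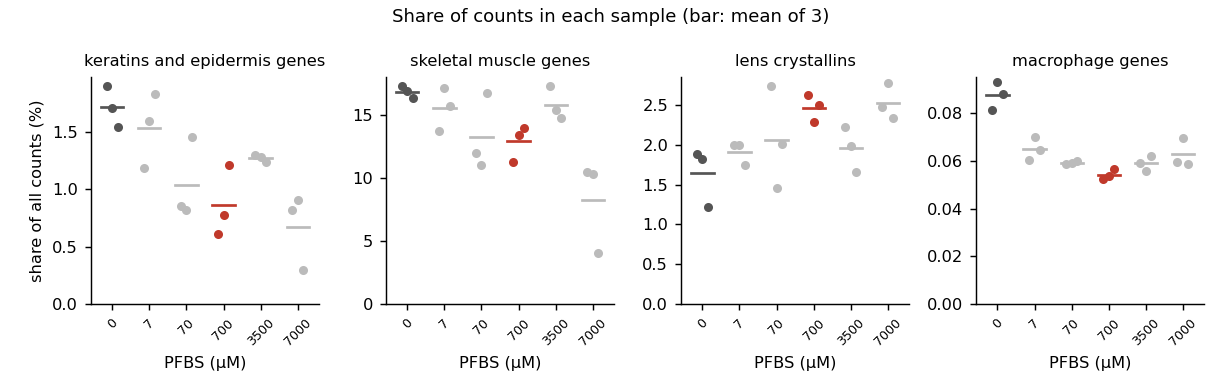
Share of all counts, in percent, taken by the keratin and epidermis, muscle, lens and macrophage gene groups in each of the 18 samples, by PFBS concentration. At 700 µM the shares of epidermis, muscle and macrophage genes lie below all controls and that of lens genes above them.

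Macrophage genes fell as well. Of 36 tested 14 were lower and none higher (9 to 16 with a library left out), with a median of -0.80. The share called lower was 38.9%, beside 6.24% of all genes. The called members included the textbook markers mpeg1.1 (log2 -1.12), mpeg1.2 (-1.33), marco (-1.21), csf1ra (-1.18), irf8 (-1.06) and mfap4 (-1.18). The list took 0.0813 to 0.0932% of counts in controls and 0.0525 to 0.0567% at 700 µM, with no overlap. The cathepsin ctss2.2 had 9.01, 10.4 and 6.95 CPM in controls and 3.1, 4.32 and 4.08 CPM at 700 µM (log2 -1.2 ± 0.19, adjusted p = 0.00312). The secreted galectin-binding gene lgals3bpb had 15.4, 12.7 and 15 against 6.15, 8.43 and 8.34 CPM (log2 -0.93 ± 0.14, adjusted p = 0.00303).

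Of 26 neutrophil genes 6 were lower (2 to 11 with a library left out), among them the leukocyte actin bundler lcp1 (22.1, 14.6 and 13.2 to 5.53, 8.90 and 9.10 CPM; log2 -1.1 ± 0.21, adjusted p = 0.00849) and coro1a (log2 -0.77 ± 0.13, adjusted p = 0.00475). The neutrophil share called lower was 23.1%, beside 6.24% of all genes. Galectin genes, whose products bind sugars on cell surfaces, were lower in 4 of 12 (33.3%, beside 6.24% of all genes). With a library left out 3 to 4 were lower. The median of the list was -0.18, with 4 genes above 0, and the call of lgals9l1 was lost in 2 fits. The galectin gene with the steepest fall, lgals1l1, had 66.5, 79.5 and 83.7 CPM in controls and 22.0, 28.6 and 30.6 CPM at 700 µM. It was 2.85-fold lower (log2 -1.51 ± 0.12, adjusted p = 0.000146).

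Inflammation and acute phase genes were lower in 8 of 34 and higher in none (3 to 12 lower with a library left out). The share called lower was 23.5%, beside 6.24% of all genes. The itaconate-producing enzyme gene irg1l went from 6.22, 6.88 and 5.60 to 1.92, 3.28 and 1.92 CPM (log2 -1.39 ± 0.22, adjusted p = 0.00324), and stat3 from 15.2, 14.2 and 10.9 to 7.64, 7.39 and 7.64 CPM (log2 -0.85 ± 0.14, adjusted p = 0.00393). The pyroptosis caspase gene caspb had 14.1, 12.6 and 12 against 2.48, 3.49 and 6.65 CPM (log2 -1.63 ± 0.25, adjusted p = 0.0032). The C-reactive protein gene crp2 had 8.10, 8.67 and 2.95 against 1.80, 1.15 and 2.27 CPM. Control 3 came near the exposed samples, and the call (log2 -1.94 ± 0.37, adjusted p = 0.00823) was lost without 700 µM sample 2. The immunoproteasome activators psme1 (log2 -0.87 ± 0.19, adjusted p = 0.0154) and psme2 (log2 -0.72 ± 0.19, adjusted p = 0.0321) were the only 2 of 43 proteasome genes called, and were lost in 2 and 4 fits. Their share was 4.65%, beside 6.24% of all genes called lower.

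Of 68 hepatocyte and plasma protein genes 14 were lower (20.6%, beside 6.24% of all genes) and none higher. The median was -0.63, and the count ran from 2 to 42 with a library left out. Complement genes made up 8 of the 14. The gene c4b had 5.20, 4.56 and 2.71 CPM in controls and 1.55, 0.937 and 1.34 CPM at 700 µM (log2 -1.73 ± 0.29, adjusted p = 0.00445). The gene c3a.3 had 11.6, 11.8 and 4.95 against 3.48, 3.02 and 3.85 CPM (log2 -1.47 ± 0.28, adjusted p = 0.00807; lost without control 1 or 700 µM sample 2). Control 3 again was the lowest control. The methyl donor enzyme gene bhmt, abundant in liver, fell from 672, 611 and 623 to 337, 370 and 439 CPM (log2 -0.75 ± 0.11, adjusted p = 0.00202). None of 17 exocrine pancreas genes was called, and their sample means at 700 µM ranged from -0.86 to 1.47 on the log2 scale relative to controls.

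Of 44 heat shock and co-chaperone genes 6 rose and 2 fell (1 to 8 higher with a library left out). The shares called were 13.6% higher and 4.55% lower, beside 3.16% and 6.24% of all genes. The cytosolic chaperone hsp90aa1.2 went from 111, 106 and 115 to 168, 166 and 156 CPM (log2 0.55 ± 0.07, adjusted p = 0.00166). The small heat shock protein gene hspb1 went the other way, from 48.9, 13.4 and 34.9 to 8.51, 11.6 and 9.45 CPM (log2 -1.74 ± 0.34, adjusted p = 0.00869), with control 2 close to the exposed samples. Of 50 genes of the unfolded protein and ATF4 response 4 rose (8%) and 1 fell (2%), beside 3.16% and 6.24% of all genes. The riser with the steadiest call was the amino acid transporter subunit slc3a2b (log2 0.59 ± 0.10, adjusted p = 0.00556). Of 30 p53 targets and apoptosis genes 1 was called higher (3.33%, near the 3.16% of all genes), gadd45ab (log2 0.54 ± 0.14, adjusted p = 0.0364), lost in 4 fits.

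Glycolysis genes moved in both directions. Of 59 hypoxia and glycolysis genes 7 rose (11.9%) and 4 fell (6.78%), beside 3.16% and 6.24% of all genes. With a library left out 3 to 11 were higher and 1 to 11 lower. The phosphofructokinase of muscle, pfkma, fell from 111, 88.1 and 86.2 to 47.8, 57.4 and 64.0 CPM (log2 -0.77 ± 0.12, adjusted p = 0.00324), as did gpib (log2 -0.51) and aldoab (-0.47). The bifunctional regulator pfkfb4b rose from 31.9, 31.2 and 48.8 to 72.3, 76 and 70.8 CPM (log2 0.95 ± 0.14, adjusted p = 0.00256), and pgam1a (log2 0.54 ± 0.08, adjusted p = 0.00254) and eno1b (log2 0.46 ± 0.08, adjusted p = 0.00576) rose too. None of 98 cytosolic ribosomal protein genes was called. Called higher were 1 of 101 nuclear oxidative phosphorylation genes (0.990%) and 1 of 13 mitochondrially encoded genes (7.69%), beside 3.16% of all genes. Mitochondrially encoded genes took 5.99 to 6.63% of counts in controls and 7.02 to 8.02% at 700 µM. Of 66 cell cycle genes 2 rose (2 to 9 with a library left out). That is 3.03%, near the 3.16% of all genes called higher. The 2 were the nucleotide supply genes rrm2 (log2 0.40 ± 0.08, adjusted p = 0.0079) and dut (log2 0.57 ± 0.10, adjusted p = 0.00527). Of 36 erythroid genes 2 fell (1 to 10 with a library left out), or 5.56% beside 6.24% of all genes called lower. They were the globin hbae5 (log2 -1.61 ± 0.28, adjusted p = 0.00544) and the factor klf17, whose call was lost in 4 fits.

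The remaining genes with the largest changes belonged to none of these groups. The rises were plac8.1 (3.97 ± 1.53 to 11 ± 2.03 CPM, SD, n = 3; log2 1.44 ± 0.23, adjusted p = 0.00334) and afp4, a gene of the type IV antifreeze protein family (10.03 ± 2.63 to 23.0 ± 5.92 CPM; log2 1.17 ± 0.21, adjusted p = 0.00541). The falls were the integrin itgb1b.1 (13.5 ± 4.38 to 4.34 ± 1.1 CPM; log2 -1.65), the otoferlin otofb (11.4 ± 1.69 to 3.75 ± 1.42 CPM; log2 -1.62), the G protein subunit gna14 (5.36 ± 1.36 to 1.66 ± 0.535 CPM; log2 -1.68), the calpain capn12 (log2 -1.64), fndc7a (log2 -1.68) and the long noncoding gene FP236157.6 (log2 -1.94). Each of these 8 was called in all 6 fits with a library left out, with adjusted p values up to 0.0359.

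The 3 exposed samples did not sit equally far from the controls. Relative to the control mean, the average log2 level of the keratin and epidermis list was -1.2, -0.89 and -0.52 in 700 µM samples 1, 2 and 3, and that of the muscle list was -0.68, -0.37 and -0.19. Collagens stood at -0.78, -0.57 and -0.24. The rod list stood at 0.70, 0.57 and 0.38 and the cone list at 0.54, 0.39 and 0.25. So sample 1 was the furthest and sample 3 the nearest for each of these lists, falling lists and rising lists alike. The cholesterol list did not follow this order, with 0.54, 0.57 and 0.62, nor did macrophages, with -0.89, -0.52 and -0.66.

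Among the controls, sample 3 was the lowest for keratins (-0.18, beside 0.16 and 0.02), for muscle (-0.18, beside 0.09 and 0.09) and for hepatocyte genes (-0.55, beside 0.21 and 0.34). In 700 µM sample 3 the hepatocyte list stood at -0.08, above that control, while samples 1 and 2 stood at -0.86 and -0.95. The lists of rods, cones, cholesterol synthesis, clock and macrophage genes had controls that stayed close to their mean. The part of these sample differences in the results above was not tested.

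**Figure D5:**
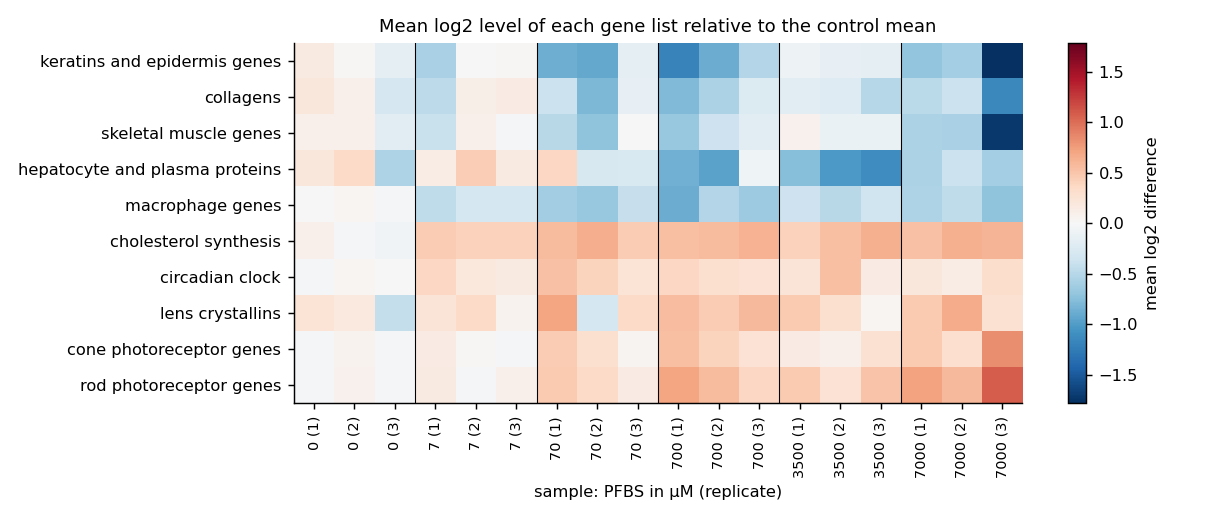
Mean log2 level of 10 gene groups relative to the control mean in each of the 18 samples, shown as colour. In the 3 columns of 700 µM the cholesterol, clock and eye lists are above 0 and the epidermis, collagen, muscle, hepatocyte and macrophage lists below 0.

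The neighbouring concentrations place these values on a series of doses. Between 700 and 70 µM edgeR called 0 of 20050 genes (0%), and DESeq2 called 1. At an unadjusted p below 0.05 edgeR had 776 genes, fewer than the 1002 expected if no gene differed. The interval of the difference is wide for several genes. The level of cyp2k18 was 29.3 ± 10.12 CPM at 700 µM (SD, n = 3). Lower concentrations gave 6.21 ± 0.968 CPM (7 µM) and 8.21 ± 4.82 CPM (70 µM), and higher ones 46.2 ± 4.23 CPM (3500 µM) and 34 ± 3.60 CPM (7000 µM). The difference of 700 minus 70 µM was a log2 of 1.84 ± 0.36, with an adjusted p of 0.973 over all genes. For fads2 the level at 70 µM was already 18.2 ± 4.37 CPM, and the difference to 700 µM was 0.37 ± 0.17 (adjusted p = 0.973). For hmgcs1 it was 0.12 ± 0.12. Some genes were already near their 700 µM mean at 7 µM. The means at 7 and 700 µM were 131 and 125 CPM for fkbp5 and 44.3 and 42.7 CPM for ucp3. They were 273 and 267 CPM for nr1d2a and 226 and 190 CPM for apoeb. Others had means nearer to the controls at 7 µM, among them tp63 at 13.4 ± 4.67 CPM and scel at 34.8 ± 9.05 CPM (SD, n = 3). The 7 µM samples were uneven, with 8.02, 16.6 and 15.6 CPM for tp63 and 24.6, 37.8 and 42.0 CPM for scel. All exposed groups share the same 3 controls. Median log2 differences from 70 µM were 0.06 for cholesterol synthesis, 0.23 for rods, 0.25 for lens, -0.26 for keratins and -0.57 for hepatocyte genes.

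Between 3500 and 700 µM 424 of 20015 genes were called (2.12%), 385 higher at 3500 µM (1.92%) and 39 lower (0.195%). Of the 50 keratin and epidermis genes 20 were higher at 3500 µM and none lower, with a median of 0.65. The gene scel had 34.3 ± 4.27 CPM at 3500 µM beside 15.6 ± 3.80 at 700 µM (SD, n = 3; log2 1.13 ± 0.17, adjusted p = 0.0125), and tp63 had 12.2 ± 1.25 beside 6.4 ± 0.746 CPM (log2 0.93 ± 0.15, adjusted p = 0.0169). At 3500 µM both thus had means between those of 700 µM and of controls. At 7000 µM they had 17.6 ± 9.27 and 6.52 ± 2.55 CPM. The levels of both genes were thus not ordered by concentration.

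Immediate early genes were higher at 3500 µM in 18 of 53, with egr1 at 634 ± 70.13 CPM (log2 0.69 ± 0.12, adjusted p = 0.0218) and ier2b at 137 ± 72.6 CPM (log2 1.86 ± 0.31, adjusted p = 0.0175). The muscle enzyme pfkma and tat, which had fallen at 700 µM, were higher at 3500 µM by log2 values of 1.35 ± 0.13 (adjusted p = 0.00262) and 1.3 ± 0.17 (adjusted p = 0.00691), at 144 ± 21.9 and 14.8 ± 2.90 CPM. The gene apoeb stood at 263 ± 17.0 CPM (log2 0.46 ± 0.09, adjusted p = 0.0309), still under every control. Among eye genes the arrestin sagb was lower at 3500 than at 700 µM (120 ± 5.79 CPM; log2 -0.48 ± 0.09, adjusted p = 0.0211). No cholesterol synthesis gene was called between these concentrations. The count of 424 depended on single libraries: it was 28, 1889 and 525 without 3500 µM sample 1, 2 or 3. Without 700 µM sample 1, 2 or 3 it was 102, 68 and 516.

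The authors' deposited table gave 1048 transcripts of 987 genes a q-value below 0.05 for 700 µM against control, 447 higher and 601 lower. Of the 986 of these genes that were tested here, 825 were called. When transcripts were tested one by one with edgeR, 17 of 28500 were called (0.0596%), 10 higher (0.0351%) and 7 lower (0.0246%), so the results above rest on counts summed per gene.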

How the data were processed

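Whole-body RNA of 18 zebrafish samples was isolated with RNAzol and the libraries quantified with a KAPA kit, per the labels' protocols. The authors deposited raw read counts for each annotated transcript, with identifiers, coordinates and biotypes, per the file headers. They also deposited log2 fold changes, p-values and q-values of their own comparison of 700 µM with control, used here only for a count. Aligner, counting program, strand setting, genome build and annotation release were not given in the sources used here, so near copies, overlapping genes and antisense pairs are uncertain. Coordinates follow that deposit.

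Counts were summed per gene identifier and tested with edgeR 4.0.16 (limma 3.58.1, R 4.3.3, data.table version 1.17.8): filterByExpr, trimmed mean of M values scaling, and the two-sided quasi-likelihood F test on the 6 libraries of a comparison, with Benjamini-Hochberg adjustment over all tested genes and a threshold of 0.05. The spread between samples of a group was 10.2% (coefficient of variation of the common dispersion). CPM levels use scaling factors over all 18 libraries, and their precision is limited by 3 samples a group. The SE is the log2 difference divided by the root of F. Replicates differed beyond counting error (chi-square per degree of freedom 5.50 to 13.8), so none was treated as a repeat. The test was tried on simulated data with known changes.

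The comparison, its members and the 45 gene lists were chosen with earlier results of these data known. Genes were named by rule. The first set was called genes with a name whose exposed samples lay outside the control range and whose higher group averaged 5 CPM or more. Of these the 15 largest rises and 15 largest falls were taken. Up to 4 called members of each list with the smallest p followed, then the called and selected uncalled genes of the nervous system panel. Other members are named to complete a list of calls, or were chosen after their values were seen. Alternatives were DESeq2 1.42.0, relative log expression factors, no filter, all 18 libraries, all but 7000 µM sample 3, a replicate block, transcripts tested singly, 1 library left out, and counts summed per gene name. The last was added after seeing the data. No sequence is printed.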

Additional observations from a re-analysis of the deposited data

How the results depend on the processing

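For 700 µM against control the count of 1902 called genes stayed within 1.5 times under DESeq2 (1797), relative log expression factors (1900), no filter (2172), counts summed per gene name (1890, an alternative chosen after seeing the data) and all libraries except 7000 µM sample 3 (1302). It was 674 with all 18 libraries and 17 with transcripts tested singly, and 674 to 2772 with 1 library left out. Of the called genes 33.6% were higher, against 58.8% among those 17 transcripts. For 700 against 70 µM no gene was called in any fit except 1 with DESeq2 and 1 with transcripts tested singly. For 3500 against 700 µM the count of 424 became 851 without 7000 µM sample 3 in a joint fit, 909 with DESeq2, 716 with no filter, 0 with transcripts tested singly and 28 to 1889 with 1 library left out. There 90.8% of called genes were higher at 3500 µM, against 68.3% with all 18 libraries, 70% without 7000 µM sample 3, 78.7% with DESeq2 and 46.5% without 3500 µM sample 2. The cause of these shifts was not tested. Of the 151 named genes that were called, none reversed under any of these alternatives. Changes of sign in uncalled named genes were not counted. Calls were lost for 58 with all 18 libraries, 20 without 7000 µM sample 3, 142 with transcripts tested singly, and 1 each with DESeq2 and with counts per gene name.

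Deviations of same-numbered samples correlated at -0.129, -0.087 and -0.302 across genes. Those of samples with different numbers correlated at -0.116 to 0.205. Deviations from a mean of 3 samples depend on one another, so these values cannot settle whether replicate numbers pair the samples. With the replicate number as a block 615 genes were called and 38 named genes lost their call. For 3500 against 700 µM the block gave 299 genes and for 700 against 70 µM 0. Depth and 3 samples a group limit low genes most.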

Other observations

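Several genes outside the naming rule were chosen after their values were seen. The jacalin-domain gene jac9 (chromosome 7, 8513993 to 8515550) had 6.86, 4.76 and 2.42 CPM in controls and 0.124, 0.208 and 0.292 CPM at 700 µM (log2 -4.46 ± 0.48, adjusted p = 0.000767). It lay at or below 0.504 CPM in all 15 exposed libraries and was at 0 in the 3 libraries of 3500 µM. Its neighbour jac8 had 1.67 ± 0.635 CPM in controls and 0.157 ± 0.0940 CPM at 700 µM (SD, n = 3; log2 -3.41 ± 0.52, adjusted p = 0.00287). The cotransporter gene slc12a10.1 fell from 2.90, 3.18 and 2.83 to 0.373, 0.521 and 0.292 CPM (log2 -2.89 ± 0.29, adjusted p = 0.000672), and the flippase gene atp8b1 from 4.02 ± 1.47 to 0.701 ± 0.248 CPM (log2 -2.55 ± 0.35, adjusted p = 0.00184). The gene CABZ01067232.1 had 10.03, 9.26 and 9.07 CPM in controls and 1.06, 1.56 and 1.92 CPM at 700 µM (log2 -2.65 ± 0.20, adjusted p = 0.000111), and was higher at 3500 than at 700 µM (log2 1.75 ± 0.28, adjusted p = 0.0139). The fin fold gene and2 had 193, 91.4 and 86.8 against 23.8, 62.0 and 37.2 CPM (log2 -1.60 ± 0.33, adjusted p = 0.0114), and 158 ± 60.8 CPM at 3500 µM.

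The largest fitted rises were in genes whose name is held by 2 identifiers. The evx1 identifier at chromosome 19, 19717971 to 19871211, had 0 counts in each control and 2.73, 1.3 and 4.66 CPM at 700 µM. That is at least 48-fold higher against a floor of 3 counts over the control group. The second evx1 identifier, which overlaps it, had 7.19, 6.02 and 7.07 CPM in controls and 2.55, 4.69 and 0.991 CPM at 700 µM (log2 -1.3 ± 0.35, adjusted p = 0.0365). Summed, they gave 7.19, 6.02 and 7.07 against 5.28, 5.99 and 5.66 CPM, so the opposite changes nearly cancelled. For si:dkey-275b16.2 one identifier had 0.590, 0.397 and 0.943 against 15.5, 1.35 and 7.58 CPM (log2 3.60 ± 0.74, adjusted p = 0.011) and the other 13.7, 15.2 and 13 against 4.04, 17.7 and 9.27 CPM (adjusted p = 0.472). Their sums were 14.3, 15.6 and 13.9 against 19.6, 19.1 and 16.9 CPM. Among the deposited identifiers 533 gene names are held by more than 1 identifier. Of 606 tested identifiers that share their name with another, 56 were called, beside 1902 of all 20228 tested (9.4%).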
